A study of Mus musculus with 24 samples.

Results

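The genes described are 9 hydrolases of the intestinal brush border, Mme, Anpep, Enpep, Dpp4, Ace, Treh, Sis, Lct and Alpi, out of 18820 genes measured with a probe set of their own. They were named by symbol, with earlier results of these data known, and each is read by 1 probe set. RNA was taken from pieces of terminal ileum of 24 male C57BL/6OlaHsd mice, and each mouse was measured on 1 Affymetrix array. The mice were 8 weeks old when obtained. The 6 groups of 4 mice were germ-free mice on long-chain β2→1-fructan, short-chain β2→1-fructan or water, and conventional mice on long-chain β2→1-fructan, short-chain β2→1-fructan or water. The fructans were given by oral gavage at 10 mg per day for 5 days, and all mice ate the same purified diet. The long chains are inulin and the short chains oligofructose. For the germ-free mice the long-chain fructan was sterilised by irradiation, which partly degraded it, and the short-chain fructan was filtered. Germ-free mice came from a colony of their own and conventional mice from a supplier, so that absence of microbes, breeding and source cannot be told apart. On the fructans, the sterilisation of the fructan for germ-free mice cannot be told apart from these either. The comparisons ask whether absence of a microbiota, or either fructan, altered expression of these enzymes.

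The brush border is the layer of microvilli on the luminal face of enterocytes. Enzymes anchored in its membrane carry out the last steps of digestion. Peptidases take amino acids and dipeptides off short peptides, and disaccharidases split sugars into monosaccharides that transporters can take up. β2→1-Fructans are not cleaved by these enzymes and reach the microbiota intact.

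All values are RMA expression values on a log2 scale. A gene was called at an unadjusted p under 0.01 with a fold change over 1.3, the thresholds of the study. Between germ-free and conventional mice, genes at a Benjamini-Hochberg adjusted p under 0.05 over all 18820 genes were counted as well. Both come from limma, fitted with 6 group means over 24 arrays.

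Of the 9 genes, 3 differed by colonization under every gavage. Mme and Treh were called higher in germ-free than in conventional mice under each of the 3 gavages, and Sis was higher at the adjusted threshold under each. Anpep, Enpep, Dpp4 and Alpi stayed within 0.16 log2 units in these 3 comparisons. In mice on long-chain fructan 2 of 9 were called and 4 passed the adjusted test, where 9.69% and 15.9% of all genes did. In mice on short-chain fructan 4 of 9 were called and 5 passed the adjusted test, where 8.76% and 15.0% of all genes did. In mice on water 2 of 9 were called and 3 passed the adjusted test, where 8.74% and 13.5% of all genes did. The called members were higher in germ-free mice, other than Ace, and genes called higher made up 3.43%, 4.29% and 2.77% of all genes on long-chain fructan, short-chain fructan and water. Each of these comparisons has its own mice.

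Of the comparisons of fructan with water, only short-chain fructan in conventional mice called a member, Mme, where 0.409% of all genes were called. No member was called after long-chain fructan in conventional mice (0.313% of all genes), or in germ-free mice after long-chain (0.855%) or short-chain fructan (0.579%). At an unadjusted p under 0.05 the 4 comparisons held 982 to 1644 genes, and 0 of 18820 passed the adjusted test in any of them. Between long-chain and short-chain fructan no member was called in germ-free mice (1.41% of all genes) or conventional mice (0.213%). No member was called for a different change in germ-free and conventional mice after long-chain (0.531%) or short-chain fructan (0.707%). The smallest adjusted p of a member in these 8 comparisons was 0.36.

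**Figure D1:**
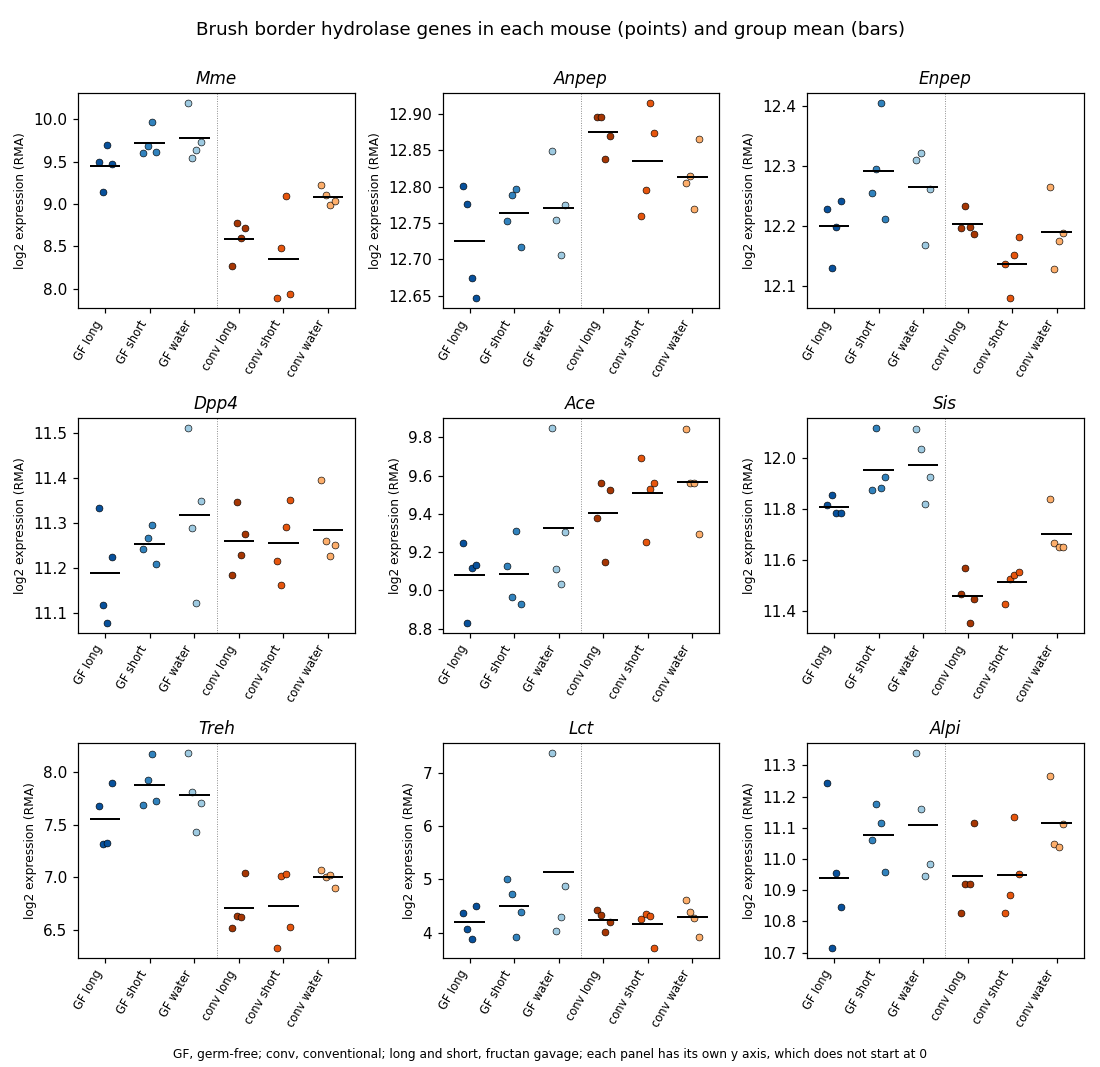
Log2 expression (y axis, RMA) of the 9 genes by group (x axis; GF, germ-free; conv, conventional; long and short, the fructans). Points are single mice and bars are means of 4; Treh has every germ-free mouse at 7.31 or above and every conventional mouse at 7.06 or below, while a germ-free water mouse stands apart for Lct at 7.37.

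The 3 genes with the clearest differences are shown with the 250 bases of genome before their annotated start, since 2 of them hold letters that enterocyte transcription factors are known to bind. The sequences are from RefSeq on GRCm38.p6, read 5′ to 3′ on the strand of the gene. Capitals mark matches on either strand to any of these motifs. TTTATG is a site known for CDX2. CAAAGTCC is a site known for HNF4 factors. GATAA is the core of sites for GATA factors. TATAAA is the common form of the TATA box. The motifs were chosen after the sequences had been seen.
Sis, chr3:72967864-72968113, minus strand: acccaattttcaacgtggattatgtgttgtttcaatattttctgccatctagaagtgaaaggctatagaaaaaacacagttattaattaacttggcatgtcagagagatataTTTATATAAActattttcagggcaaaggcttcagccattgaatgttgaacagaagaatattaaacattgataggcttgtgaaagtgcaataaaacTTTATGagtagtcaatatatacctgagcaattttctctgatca
Treh, chr9:44672983-44673232, plus strand: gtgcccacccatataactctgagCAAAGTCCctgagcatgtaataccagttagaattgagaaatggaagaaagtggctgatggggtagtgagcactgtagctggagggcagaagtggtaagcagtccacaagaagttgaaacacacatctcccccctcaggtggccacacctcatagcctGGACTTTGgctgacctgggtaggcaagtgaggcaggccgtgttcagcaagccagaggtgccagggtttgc
Mme, first of 3 annotated starts, chr3:63294961-63295210, plus strand: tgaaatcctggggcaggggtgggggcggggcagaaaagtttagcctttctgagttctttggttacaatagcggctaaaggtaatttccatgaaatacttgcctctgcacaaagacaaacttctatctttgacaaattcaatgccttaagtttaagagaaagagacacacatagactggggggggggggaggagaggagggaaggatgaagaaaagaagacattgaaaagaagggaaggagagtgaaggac
The Sis stretch holds a CDX2 match from -43 to -38, counted from the start, and a pair of TATA box matches that overlap each other between -138 and -129. The Treh stretch holds 2 HNF4 matches, from -227 to -220 and from -70 to -63. None of the 4 motifs was found before any of the 3 starts of Mme. In 32851 RefSeq windows of 250 bases, 10.76% hold the CDX2 letters, 1.20% the HNF4 letters, 22.58% the GATA core and 12.37% the TATA box. Among the other members the HNF4 letters stand before Alpi (from -19 to -12) and before the first start of Ace (from -104 to -97), and Lct has 3 GATA matches and 1 CDX2 match. Dpp4 and Enpep each have 1 GATA match and 1 TATA box match. A TATA box match also stands before Alpi (from -33 to -28) and before the first start of Ace (from -31 to -26). Anpep had no match. A match describes letters only, and no binding was measured.

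Mme encodes neprilysin, a zinc peptidase that cuts peptide hormones such as enkephalins and natriuretic peptides. Its gene lies on chromosome 3 of GRCm38.p6 from 63295211 to 63383713 and is read by probe set 10492355. Among germ-free mice, Mme was at 9.49, 9.14, 9.69 and 9.47 on long-chain fructan. On short-chain fructan germ-free mice had 9.60, 9.68, 9.97 and 9.62, and on water they had 10.19, 9.54, 9.64 and 9.74. The germ-free groups overlapped each other. Among conventional mice, Mme was at 8.27, 8.77, 8.60 and 8.72 on long-chain fructan. On short-chain fructan conventional mice had 7.89, 8.48, 9.10 and 7.94, and on water they had 9.22, 9.10, 8.99 and 9.04. All long-chain mice of the conventional arm were below all water mice, whereas 1 of 4 short-chain mice was within the range of water.

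On water, Mme was 1.61-fold higher in germ-free than in conventional mice, a log2 difference of 0.69 (standard error, SE, 0.18, adjusted p = 0.0098 by limma). With long-chain fructan it was 1.81-fold higher (0.86, SE 0.18, adjusted p = 0.0014), and with short-chain fructan it was 2.58-fold higher (1.36, SE 0.18, adjusted p = 5.6e-06). In each of these 3 comparisons every germ-free mouse was above every conventional mouse, and the exact two-sided permutation p was 0.0286, the smallest that 4 mice against 4 can give. In bulk tissue, fewer cells of a type and less RNA per cell cannot be told apart, here and in all results that follow. Adipocyte markers moved with the same contrast, as given with the marker lists. With the mean of these markers in the model, the Mme differences were 0.93 on long-chain fructan, 1.47 on short-chain fructan and 0.74 on water, all called. That mean itself differed by colonization, and its slope in the model comes from mice within groups. Fits with these markers, here and below, therefore cannot tell fat in the pieces from colonization.

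In conventional mice Mme was 1.67-fold lower after short-chain fructan than on water, with a log2 fold change of -0.74 (SE 0.18, unadjusted p = 3.7e-04). The adjusted p over all genes was 0.78, and the groups overlapped, with an exact permutation p of 0.0857. The short-chain mouse at 9.10, replicate 3, set much of that spread: without it the log2 fold change was -0.98 and the adjusted p 0.0043. Leaving out each mouse in turn gave -0.98 to -0.58. Over all alternatives the adjusted p ran from 0.0043, the value without that mouse, to 0.998. Adipocyte marker means were 5.42 to 5.98 in short-chain and 6.12 to 6.21 in water mice. With them in the model the log2 fold change of Mme was -0.76, which was called. The ranges of the markers did not overlap, so this fit cannot tell fat in the pieces from the gavage. After long-chain fructan Mme had a log2 fold change of -0.50 (SE 0.18, unadjusted p = 0.011), which missed the threshold of the call. It was called, at -0.56 (adjusted p = 0.998), without replicate 2 of the long-chain mice. It was also called, at -0.50 (adjusted p = 0.18), when only the arrays of the groups compared were fitted. Leaving out each mouse gave -0.56 to -0.39. Both fructans were set against the same water mice. In germ-free mice the values against water were -0.33 for long-chain and -0.06 for short-chain fructan, neither called.

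Long-chain and short-chain fructan differed for Mme in conventional mice by 0.24 (95% interval -0.13 to 0.61), which was not called. Without replicate 3 of the short-chain mice this difference was 0.49 and was called, with an adjusted p of 0.999 by limma. Leaving out each mouse gave 0.09 to 0.49. The change of Mme after short-chain fructan was higher by 0.67 in germ-free than in conventional mice (SE 0.26, unadjusted p = 0.014, adjusted p = 0.90), short of the call. It was called, at 0.92 (adjusted p = 0.33), without replicate 3 of the conventional short-chain mice. It was also called, at 0.81 (adjusted p = 0.87), without replicate 1 of the germ-free water mice. Leaving out each mouse gave 0.52 to 0.92. After long-chain fructan the same difference was 0.17 (95% interval -0.36 to 0.69).

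**Figure D2:**
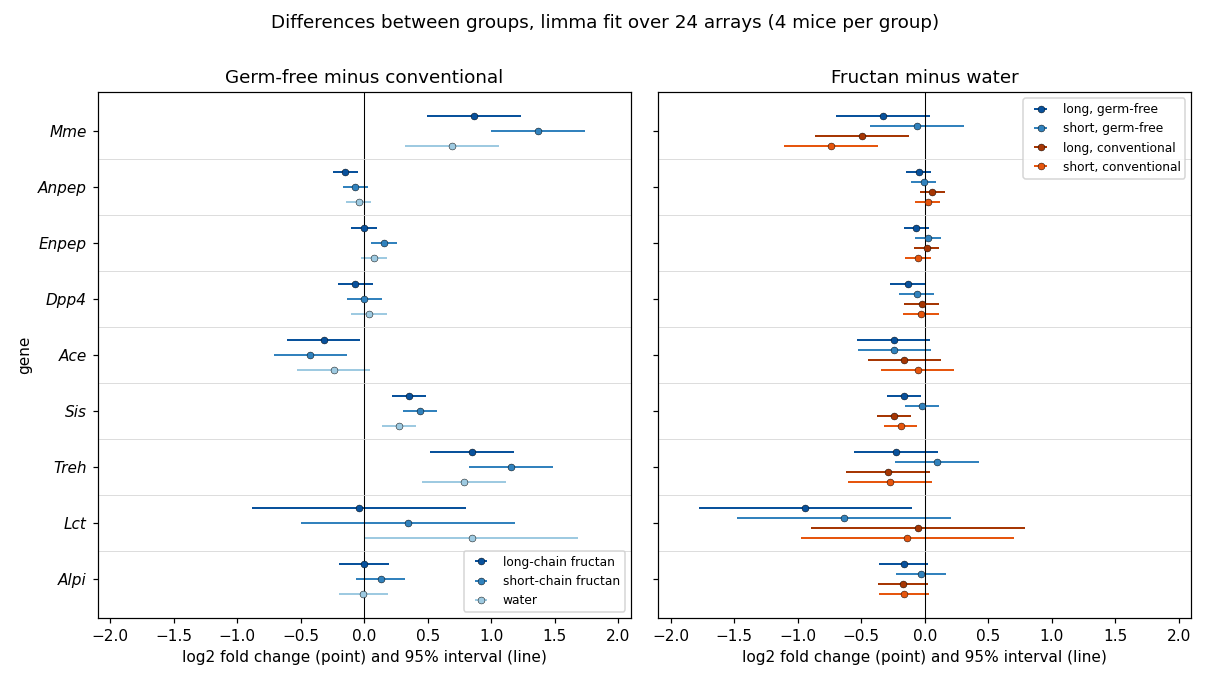
Log2 fold changes of the 9 genes (y axis) with 95% intervals (x axis). The left panel has germ-free minus conventional mice on long-chain fructan, short-chain fructan or water. The right panel has fructan minus water under the same colonization. Mme, Treh and Sis lie above 0 in all 3 comparisons on the left, and Mme after short-chain fructan in conventional mice, at -0.74, is the only member called on the right.

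Ace encodes angiotensin-converting enzyme, which releases dipeptides from the carboxyl end of peptides (chromosome 11, from 105967948 to 105989964). Its values ran the other way from those of Mme. Germ-free mice were at 9.25, 8.83, 9.12 and 9.13 on long-chain fructan, at 9.13, 8.97, 9.31 and 8.93 on short-chain fructan, and at 9.85, 9.11, 9.04 and 9.30 on water. Conventional mice were at 9.38, 9.56, 9.15 and 9.53 on long-chain fructan, at 9.69, 9.25, 9.53 and 9.56 on short-chain fructan, and at 9.84, 9.56, 9.56 and 9.30 on water. The groups overlapped under each gavage. Ace was 1.34-fold lower in germ-free mice on short-chain fructan (log2 change -0.43, SE 0.14, adjusted p = 0.038), and the exact permutation p was 0.0571. The call ended, with log2 fold changes of -0.37 to -0.42, when replicate 2 or 4 of the germ-free mice or replicate 1, 3 or 4 of the conventional mice was left out. It also ended, at -0.14, with adipocyte markers in the model. On long-chain fructan the log2 fold change of Ace was -0.32 (adjusted p = 0.13). On water it was -0.24 (adjusted p = 0.30), but -0.42 (adjusted p = 0.026, called) without replicate 1 of the germ-free water mice, which was at 9.85.

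Anpep, Enpep and Dpp4 encode aminopeptidase N, glutamyl aminopeptidase and dipeptidyl peptidase 4, which take amino acids or dipeptides off the amino end of peptides. Dpp4 also inactivates the incretin hormones. Their values lay high on the scale of the array, where the highest mean of any gene was 13.12. Anpep spanned 12.65 to 12.85 in germ-free mice and 12.76 to 12.91 in conventional mice. Enpep spanned 12.13 to 12.41 in germ-free mice and 12.08 to 12.26 in conventional mice. Dpp4 spanned 11.08 to 11.51 in germ-free mice and 11.16 to 11.40 in conventional mice. For all 3 genes the ranges of germ-free and conventional mice overlapped.

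Differences of these 3 peptidases were small next to those of Mme. On long-chain fructan, Anpep was at 12.80, 12.78, 12.67 and 12.65 in germ-free mice and at 12.90, 12.90, 12.84 and 12.87 in conventional mice. No value overlapped, and the fold was 1.11 (log2 change -0.15, SE 0.05, adjusted p = 0.032), below the threshold of the call. On short-chain fructan, Enpep was at 12.25, 12.30, 12.41 and 12.21 in germ-free mice and at 12.14, 12.08, 12.15 and 12.18 in conventional mice. Here too no value overlapped, with a 1.11-fold higher level in germ-free mice (log2 change 0.15, SE 0.05, adjusted p = 0.032). Enpep did not pass on long-chain fructan (0.00, 95% interval -0.11 to 0.10) or on water (0.08, 95% interval -0.02 to 0.18). Anpep did not pass on short-chain fructan (-0.07, 95% interval -0.17 to 0.03) or on water (-0.04, 95% interval -0.14 to 0.05). Dpp4 differed by -0.07, 0.00 and 0.03 between germ-free and conventional mice on long-chain fructan, short-chain fructan and water, with the smallest adjusted p at 0.54. The adjusted test of Anpep on long-chain fructan was no longer passed when replicate 3 or 4 of the germ-free mice or replicate 1, 2 or 4 of the conventional mice was left out, nor with adipocyte or pan-epithelial markers in the model. That of Enpep on short-chain fructan was no longer passed without replicate 2 or 3 of the germ-free mice or replicate 1, 2 or 3 of the conventional mice, nor with adipocyte markers in the model.

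Treh encodes trehalase, which splits the sugar of fungi and insects, trehalose, into glucose (chromosome 9, from 44673233 to 44686305). Germ-free mice were at 7.68, 7.31, 7.33 and 7.89 on long-chain fructan, at 7.68, 7.93, 8.17 and 7.72 on short-chain fructan, and at 8.18, 7.81, 7.43 and 7.71 on water. Conventional mice were at 6.52, 6.64, 6.63 and 7.04 on long-chain fructan, at 6.33, 7.01, 7.03 and 6.52 on short-chain fructan, and at 7.06, 7.00, 7.02 and 6.89 on water. All 12 germ-free values of Treh lay above its 12 conventional values. How many of all genes separate in this way was not counted. It was 1.80-fold higher in germ-free mice on long-chain fructan (log2 change 0.85, SE 0.16, adjusted p = 5.2e-04). On short-chain fructan it was 2.22-fold higher (1.15, SE 0.16, adjusted p = 1.1e-05), and on water 1.72-fold higher (0.78, SE 0.16, adjusted p = 0.0012). With adipocyte markers in the model these differences were 1.09, 1.53 and 0.95, all called, under the limit given for Mme. Leaving out single mice gave 0.73 to 0.96, 1.02 to 1.26 and 0.65 to 0.90.

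After the fructans, Treh had log2 fold changes of -0.29 for long-chain and -0.27 for short-chain fructan against water in conventional mice, with unadjusted p of 0.082 and 0.099. In germ-free mice these were -0.23 and 0.09. None was called, and the 95% intervals in conventional mice reached from -0.62 to 0.04 and from -0.60 to 0.06.

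Sis encodes sucrase-isomaltase, which splits sucrose and the branch points of starch fragments (chromosome 3, from 72888557 to 72967863). Germ-free mice were at 11.82, 11.85, 11.78 and 11.78 on long-chain fructan, at 11.88, 12.12, 11.88 and 11.93 on short-chain fructan, and at 12.11, 12.03, 11.82 and 11.93 on water. Conventional mice were at 11.47, 11.57, 11.35 and 11.45 on long-chain fructan, at 11.43, 11.53, 11.54 and 11.55 on short-chain fructan, and at 11.84, 11.67, 11.65 and 11.65 on water. On either fructan all germ-free mice were above all conventional mice, and on water 1 conventional mouse was within the germ-free range. The difference was 1.28-fold on long-chain fructan (log2 change 0.35, SE 0.06, adjusted p = 3.7e-04) and 1.36-fold on short-chain fructan (0.44, SE 0.06, adjusted p = 2.5e-05). On water it was 1.21-fold (0.27, SE 0.06, adjusted p = 0.0050). The call, which needs a fold over 1.3, was met on short-chain fructan only. On long-chain fructan it was also met, at 0.42, with adipocyte markers in the model and, at 0.39, without replicate 2 of the conventional mice.

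In conventional mice all 4 Sis values after each fructan lay below all 4 on water, although by less than the fold needed for a call. Against water, Sis was 1.18-fold lower after long-chain fructan (log2 change -0.24, SE 0.06, unadjusted p = 7.9e-04, adjusted p = 0.67). After short-chain fructan it was 1.14-fold lower (-0.19, SE 0.06, unadjusted p = 0.0067, adjusted p = 0.84). Both were read against the same water mice. In germ-free mice Sis had log2 fold changes of -0.16 after long-chain fructan (unadjusted p = 0.017) and -0.02 after short-chain fructan. Germ-free long-chain mice were all below germ-free short-chain mice (-0.14, 95% interval -0.27 to -0.01, unadjusted p = 0.037, adjusted p = 0.36).

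Lct encodes lactase, which splits milk sugar and is known to fall after weaning and to be low in distal small intestine (chromosome 1, from 128284756 to 128328318). Lct was at 3.89 to 7.37 in germ-free mice (median 4.37) and at 3.71 to 4.62 in conventional mice (median 4.29). These values are low on the array: its mean over 24 arrays was 4.42, and 36.6% of genes had a lower mean. The highest value belonged to replicate 1 of the germ-free water mice, and the next was 5.01. That same mouse had the highest value of the series for Mme, Dpp4, Ace, Treh and Alpi as well. Germ-free against conventional mice on water differed by 0.84 for Lct (SE 0.41, adjusted p = 0.19), but by 0.10 without that mouse. Long-chain fructan against water in germ-free mice differed by -0.94 (unadjusted p = 0.030), but by -0.20 without it. The change after long-chain fructan was called, at -1.31 and -1.22, when replicate 2 or 3 of the germ-free water mice was left out, and the difference on water, at 1.22, without replicate 2. With adipocyte markers in the model, Lct was called higher in germ-free mice on water (1.48, adjusted p = 0.017) and on short-chain fructan (1.77, adjusted p = 0.091, beside 0.34 without them). With pan-epithelial markers in the model, Lct was called on water (1.20, adjusted p = 0.070) and after long-chain fructan in germ-free mice (-1.13, adjusted p = 0.37). The mouse at 7.37 was in all these fits. It also had the lowest adipocyte mean of the germ-free mice (6.23). The values with adipocyte markers therefore rest in part on this mouse.

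Alpi encodes an intestinal alkaline phosphatase, which removes phosphate from bacterial lipopolysaccharide and other substrates (chromosome 1, from 87098002 to 87101606). It was at 10.71 to 11.34 in germ-free mice and at 10.83 to 11.27 in conventional mice. The differences between germ-free and conventional mice were 0.00, 0.13 and -0.01 on long-chain fructan, short-chain fructan and water, and the ranges overlapped. Against water, Alpi had log2 fold changes of -0.17 after each fructan in conventional mice and -0.17 and -0.03 after long-chain and short-chain fructan in germ-free mice. None of these passed, and the smallest unadjusted p was 0.085.

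The order of the group means differed by gene. For Mme it ran germ-free water, short-chain and long-chain, then conventional water, long-chain and short-chain, at 9.78, 9.72, 9.45, 9.09, 8.59 and 8.35. The ranges of neighbours overlapped in this order except between conventional water and conventional long-chain mice. For Treh only germ-free long-chain (7.55) and conventional water mice (7.00) were neighbours without overlap. For Sis there were 2 such gaps, between germ-free short-chain (11.95) and germ-free long-chain mice (11.81) and between conventional water (11.70) and conventional short-chain mice (11.51). For Anpep, Enpep, Dpp4, Ace, Lct and Alpi all neighbours overlapped.

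Among all members, 9 of 9 had a negative log2 fold change after long-chain fructan in germ-free mice, with a median of -0.17 beside 0.00 for all genes. Of all genes, 50.9% were positive in this comparison. Markers of B cells and of the villus tip also differed in this comparison. Of 5 B cell markers 4 were called higher after long-chain fructan (median 0.53), and their mean was 3.71, 3.62, 4.56 and 4.69 in long-chain mice against 3.53 to 3.65 in water mice. Of 5 villus tip markers 2 were called lower, Ada and Slc28a2 (median -0.42), with means of 8.25 to 8.83 in long-chain mice and 8.72 to 9.62 in water mice. The water mouse at 9.62 was replicate 1, the mouse that was also highest for Lct, Mme, Dpp4, Ace, Treh and Alpi. Its values therefore lower the log2 fold changes of these members against water. In conventional mice 0 of 5 villus tip markers were called after either fructan, with a median of -0.30 after each, and their means were 8.81 to 9.12 on long-chain fructan, 8.92 to 9.13 on short-chain fructan and 9.14 to 9.30 on water. The part of either list in the values of the members was not tested.

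In conventional mice 7 of 9 were negative after long-chain fructan (median -0.16, all genes -0.02) and 8 of 9 after short-chain fructan (median -0.14, all genes -0.02). Of all genes, 44.3% were positive after long-chain and 43.5% after short-chain fructan. After short-chain fructan in germ-free mice it was 7 of 9 (median -0.03, all genes 0.01), where 53.9% of all genes were positive. For long-chain against short-chain fructan in germ-free mice it was 9 of 9 (median -0.14, all genes -0.01), where 46.6% of all genes were positive. The members share mice and vary together, so these counts describe the same arrays several times.

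Mme, Treh and Sis were correlated over the series, but within groups, of their 3 pairs, only Mme and Treh had an r above the median of all pairs of members. Over 24 arrays Pearson's r was 0.92 for Mme and Treh, 0.88 for Sis and Treh and 0.86 for Mme and Sis, and these values take in the gap between germ-free and conventional mice. After the group means were taken off, r was 0.69, 0.36 and 0.25. Of all 36 pairs of members, 28 were positive over the arrays and 36 within groups (median 0.44, from 0.09 to 0.76), with the highest value within groups for Dpp4 and Ace. Arrays of a group share their treatment, and the members share the enterocytes in each piece, so r is given as a description.

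**Figure D3:**
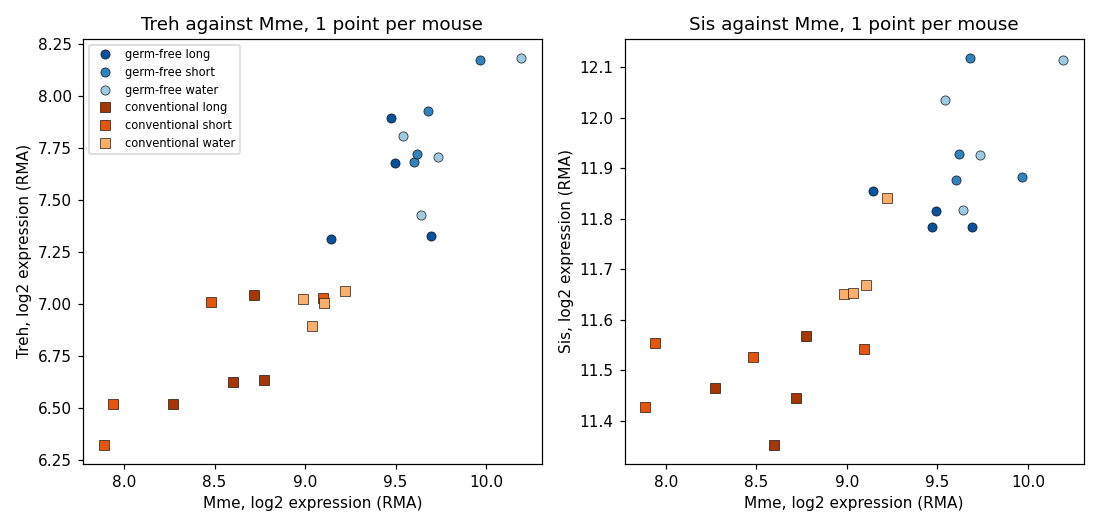
Log2 expression of Treh (left) and Sis (right) on the y axes against Mme on the x axes, 1 point per mouse, circles for germ-free and squares for conventional mice. Over the 24 mice r was 0.92 for Treh and 0.86 for Sis, and most of the spread runs between the germ-free and the conventional cloud.

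The 3 genes most like each member were taken by Pearson's r over 24 arrays. For Mme they were Cyp2d26 (r = 0.95), 2010106E10Rik (0.94) and the cytochrome P450 gene Cyp4b1 (0.94). For Treh they were the retinol dehydrogenase gene Rdh7 (0.96), Hsd17b13 (0.96) and Cyp4b1 (0.96). For Sis they were Tkfc (0.94), which encodes the triokinase of fructose breakdown, the fatty acid amide hydrolase gene Faah (0.92) and Anxa13 (0.92). Within groups these values were 0.75, 0.80 and 0.81 for Mme, 0.79, 0.80 and 0.74 for Treh, and 0.67, 0.69 and 0.59 for Sis. Rdh7 was higher in germ-free mice by 1.40, 2.15 and 1.64 log2 units on long-chain fructan, short-chain fructan and water, and Cyp4b1 by 1.19, 1.62 and 1.16, all called. Since both were picked for an r that takes in the gap between germ-free and conventional mice, this direction follows from the choice and is given as a description.

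The other members had different neighbours. Dpp4 was most like Xpnpep2 (0.85), a membrane aminopeptidase, Prap1 (0.84) and Tm6sf2 (0.82). Alpi was most like Susd2 (0.81), the dipeptidase gene Dpep1 (0.80) and Prap1 (0.79). Enpep was most like Marchf6 (0.87), the prolidase gene Pepd (0.86) and Tmbim6 (0.85). Anpep was most like Selenop (0.84), Slc25a3 (0.81) and Tapbp (0.80), and Ace most like the ceramidase gene Asah2 (0.84), Phf1 (0.83) and Lrmp (0.83). Lct was most like the brush border phospholipase gene Plb1 (0.91), Hsd17b6 (0.89) and Mycbpap (0.87). Replicate 1 of the germ-free water mice was at 7.37 for Lct and all other mice were at 5.01 or below. The r values of Lct therefore depend strongly on 1 mouse, and they were not computed without it.

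On the array, 12 further brush border hydrolases were read. On short-chain fructan 2 of 12 were called higher in germ-free mice, Enpp7 and Enpp3, with a median log2 fold change of 0.07 beside 0.03 for all genes. On water 1 of 12 was called higher, Enpp7 (median -0.01, all genes 0.01). On long-chain fructan 1 of 12 was called lower, Nt5e (median -0.03, all genes 0.03). For all genes the shares called were 9.69%, 8.76% and 8.74% on long-chain fructan, short-chain fructan and water. The counts of this list are near these shares. Enpp7 encodes alkaline sphingomyelinase and averaged 8.52 ± 0.36 in germ-free and 7.02 ± 0.53 in conventional mice on short-chain fructan (log2 change 1.5, SE 0.43, adjusted p = 0.017). On water Enpp7 averaged 9.09 ± 1.21 in germ-free and 7.52 ± 0.27 in conventional mice (1.57, SE 0.43, adjusted p = 0.013). The mean of the 12 genes was 8.76 in replicate 1 of the germ-free water mice and 8.15 to 8.39 in the others of that group. How far Enpp7 on water rests on this mouse was not tested. Enpp3, a nucleotide pyrophosphatase gene, was at 6.54 ± 0.13 in germ-free and 6.01 ± 0.21 in conventional mice on short-chain fructan (0.53, SE 0.13, adjusted p = 0.0062). Nt5e encodes the AMP-cleaving enzyme CD73 and was at 6.62 ± 0.37 in germ-free and 7.67 ± 0.34 in conventional mice on long-chain fructan (-1.05, SE 0.31, adjusted p = 0.021). Errors are SD of 4 mice.

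The maltase-glucoamylase gene Mgam, the partner of Sis in starch digestion, was not called in any of these comparisons. It averaged 11.64 ± 0.11 in germ-free and 11.64 ± 0.13 in conventional mice on short-chain fructan, and 11.71 ± 0.08 in germ-free and 11.75 ± 0.08 in conventional mice on water. The meprin genes Mep1a and Mep1b passed the adjusted test on long-chain fructan, 1.17-fold and 1.15-fold lower in germ-free mice (adjusted p = 0.038 and 0.030), below the fold of a call. Between fructan and water, 1 of 12 was called, Enpp7, which was lower after long-chain fructan in germ-free mice (7.81 ± 0.95 against 9.09 ± 1.21 on water, log2 fold change -1.28, adjusted p = 0.39). These germ-free groups overlapped, and the water group is the one with the high replicate 1. In this comparison 0.855% of all genes were called.

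**Figure D4:**
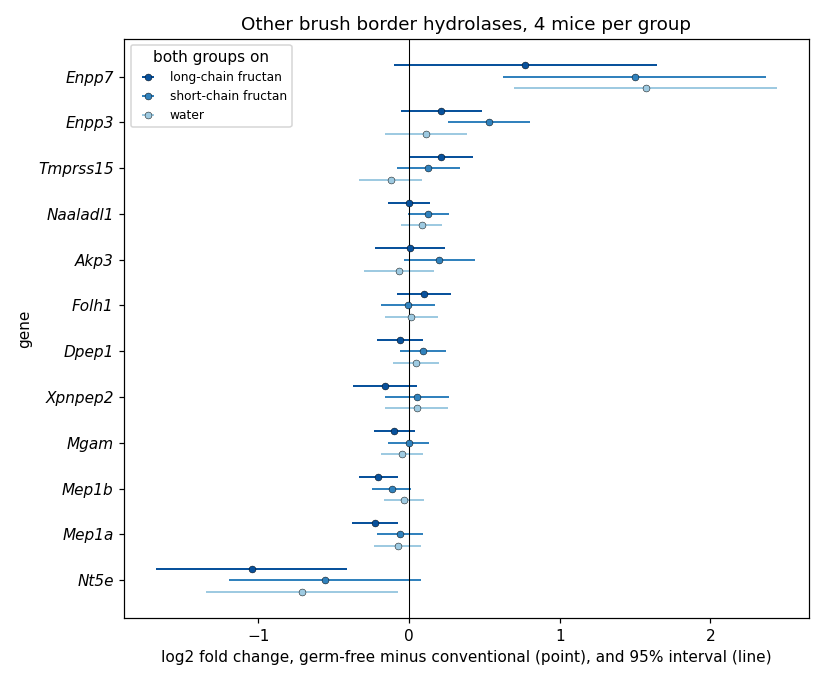
Log2 fold changes (x axis, germ-free minus conventional, with 95% intervals) of 12 further brush border hydrolases (y axis) under long-chain fructan, short-chain fructan and water. Enpp7 lies highest, at 1.5 on short-chain fructan and 1.57 on water, Nt5e lowest, at -1.05 on long-chain fructan, and Mgam is near 0.

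Genes that build the microvillus showed no called difference. Of 12 scaffold genes, such as Vil1, Ezr and Cdhr2, 0 of 12 were called in any of the 9 comparisons between groups, and their mean per mouse was 10.22 to 10.43 in germ-free and 10.28 to 10.43 in conventional mice. For all genes, 9.69%, 8.76% and 8.74% were called between germ-free and conventional mice on long-chain fructan, short-chain fructan and water. The adjusted test was passed by 15.9%, 15.0% and 13.5% of them. With 12 genes, 0 called cannot be set apart from such shares. At the adjusted threshold 2, 2 and 1 of 12 scaffold genes passed in these 3 comparisons, which is near the shares of all genes. The scaffold genes that passed on long-chain fructan were the protocadherin genes Cdhr2 (-0.32) and Cdhr5 (-0.20). Tmigd1 was higher in germ-free mice by 0.29 on short-chain fructan and 0.22 on water.

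Of transcription factors of enterocytes, 10 were read. Hnf4g, which encodes HNF4γ, was called higher in germ-free mice on short-chain fructan (0.66, SE 0.08, adjusted p = 3.2e-06) and on water (0.43, SE 0.08, adjusted p = 8.0e-04), and was 0.25 higher on long-chain fructan (adjusted p = 0.038). Prdm1, which encodes the repressor Blimp-1, was lower by 1.16 on long-chain fructan, by 0.88 on short-chain fructan and by 0.72 on water, all called. Hnf4a, Gata4 and Gata6 were not called, and Cdx2 was at 9.39 ± 0.09 in germ-free and 9.61 ± 0.13 in conventional mice on short-chain fructan (adjusted p = 0.041), below the fold of a call. The list had 1 of 10 called on long-chain fructan, 3 on short-chain fructan and 2 on water, with medians of 0.05, -0.16 and 0.05. The shares of all genes called were 9.69%, 8.76% and 8.74%. Between fructan and water, 1 of 10 was called, Gata5, which was lower by 0.41 after short-chain fructan in germ-free mice.

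The share of epithelium and other tissue in the pieces was read from marker lists. The mean of 8 pan-epithelial markers per mouse was 10.81 to 10.94 in germ-free and 10.77 to 10.93 in conventional mice. Under each gavage 0 of 8 were called, where 9.69%, 8.76% and 8.74% of all genes were on long-chain fructan, short-chain fructan and water. The adjusted test was passed by 1, 0 and 1 of 8, and by 15.9%, 15.0% and 13.5% of all genes. With 8 genes, such counts cannot be set apart from these shares. Of 6 adipocyte markers 5, 5 and 3 were called higher in germ-free mice on long-chain fructan, short-chain fructan and water, with medians of 1.39, 2.08 and 0.97. Their mean per mouse was 6.23 to 8.15 in germ-free and 5.42 to 6.72 in conventional mice. Of 6 smooth muscle markers 4, 2 and 5 were called lower, and their mean was 9.38 to 10.33 in germ-free and 10.37 to 10.65 in conventional mice. Of 6 T cell markers 6, 5 and 5 were called lower, with means of 4.68 to 5.05 in germ-free and 5.91 to 6.44 in conventional mice. Of 6 myeloid markers 5, 2 and 2 and of 6 endothelial markers 5, 0 and 3 were called lower. Over 24 arrays r with the adipocyte mean was 0.68 for Mme, 0.65 for Treh and 0.63 for Sis, and within groups it was -0.09, -0.38 and -0.32. With the smooth muscle mean it was -0.67, -0.73 and -0.75 over 24 arrays and 0.01, -0.18 and -0.27 within groups. For smooth muscle, T cell, myeloid and endothelial markers, their part in the differences of the members was not tested.

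Position along the intestine was read the same way. Markers of ileal enterocytes, such as Fabp6 and Slc10a2, averaged 9.78 to 10.51 in germ-free and 10.35 to 10.70 in conventional mice, so that defining genes of the ileum were read in both. Of 8 ileal markers 1, 2 and 1 were called lower and 0 higher in germ-free mice on long-chain fructan, short-chain fructan and water. Their medians were -0.17, -0.03 and -0.08, beside 0.03, 0.03 and 0.01 for all genes. Fgf15, a hormone gene of this list that bile acids induce, was lower by 3.74, 4.94 and 2.01 log2 units, all called. It therefore lowers the mean of the list more than its median. Markers of proximal enterocytes averaged 6.62 to 7.70 in germ-free and 6.57 to 7.08 in conventional mice. Their median log2 fold changes were 0.45, 0.65 and 0.01 on long-chain fructan, short-chain fructan and water, beside 0.03, 0.03 and 0.01 for all genes. Of these 7 genes 1, 3 and 3 were called higher in germ-free mice, among them Rbp2 under each gavage and Fabp1 on short-chain fructan (2.60) and water (2.25), and 1, 1 and 2 were called lower, among them Slc40a1. Between fructan and water in conventional mice, 1 of these 7 was called after either fructan, Slc2a2, which encodes a glucose and fructose transporter and was lower (-1.43 after long-chain and -0.97 after short-chain fructan). Over 24 arrays the proximal mean had r of 0.76 with Mme, 0.80 with Treh and 0.80 with Sis. These values take in the gap between germ-free and conventional mice, and within groups r was 0.46, 0.61 and 0.52. The part of the proximal markers in the differences of these members was not tested.

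**Figure D5:**
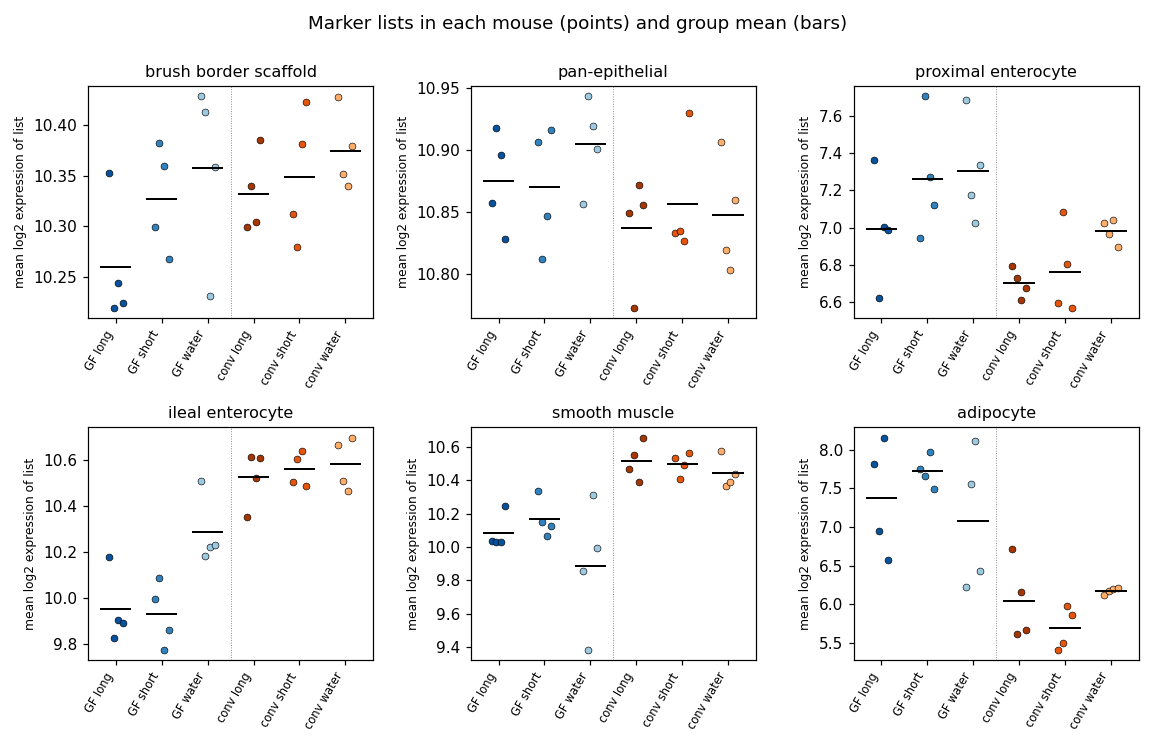
Mean log2 expression (y axes) of 6 marker lists by group (x axes; GF, germ-free; conv, conventional), with points for mice and bars for the means of 4. Pan-epithelial means stay between 10.77 and 10.94, while adipocyte means reach 8.15 in germ-free and 6.72 in conventional mice.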

How the data were processed

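Ileal RNA of 24 mice was read on 24 arrays, and groups were taken from the sample labels. The authors deposited log2 expression values made with RMA (affyPLM), which corrects background, quantile-normalizes between arrays and summarizes probes. The methods name a remapped probe annotation, whereas the file numbers its probe sets as the array's maker does. Array medians were 4.92 to 4.98, as quantile normalization sets them. The number of arrays limits the precision. Of 35556 probe sets, 21218 carry 1 gene symbol, 1881 several and 12457 none in the platform table. Those with 1 symbol were kept, and for 1386 genes the brightest of several was used, which gave 18820 genes.

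Values were fitted in R 4.3.3 with limma 3.58.1 (6 group means, 24 arrays, eBayes with trend), tested on simulated data beforehand. Single genes were also compared by exact two-sided permutation over the 35 ways to divide 8 mice. The methods' test is an intensity-based moderated t (IBMT), which was an alternative. Others were 1 prior, fewer arrays, cyclic loess, array weights, dim genes left out, the mean of probe sets, pan-epithelial or adipocyte markers as a covariate, the replicate number as a block, and leaving out each mouse. The adipocyte covariate was added after the data had been seen. Named are the 9 members, up to 4 genes of a list with the smallest p in a comparison, and the 3 genes with the highest r with each member. The first also have values for each mouse where they passed a test. List genes named as examples or as not called were chosen for their role. Nothing states that mice come from separate litters or cages, so p-values measure the spread between these mice. The members and lists were chosen with earlier results of these data known. Promoter sequences are from RefSeq (GRCm38.p6).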

Additional observations from a re-analysis of the deposited data

Results flagged for a closer look

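In 54 sets of 4 mice (9 genes in 6 groups), 2 held a mouse far from the other three, by the ratio of its gap to the whole range against Dixon's critical value. Chance alone gives about 5% of such sets. Lct was at 3.71 in replicate 4 of the conventional short-chain mice, and the nearest mouse was at 4.26 (ratio 0.86). Sis was at 11.84 in replicate 1 of the conventional water mice, and the nearest was at 11.67 (ratio 0.90). Lct at 7.37 in replicate 1 of the germ-free water mice did not reach the critical value.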

How the results depend on the processing

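Of 1969 values of single genes under the alternatives, 1946 stayed on their side of the call, 6 lost it, 17 gained it and 0 changed sign while called; 99 that were not called changed sign. Mme and Treh, germ-free against conventional, stayed called under every alternative run, IBMT included. The count of members called after long-chain fructan in conventional mice was 1 (Mme) in place of 0 with the arrays of the groups compared, with array weights and with pan-epithelial markers in the model. After long-chain fructan in germ-free mice it was 1 (Lct) in place of 0 with pan-epithelial markers. On short-chain fructan, germ-free against conventional, the 5 members at the adjusted threshold were 3 (Mme, Sis and Treh) with 1 prior for all genes and with adipocyte markers in the model. Leaving out each mouse gave 0 to 1 members called after long-chain fructan, whether in germ-free or conventional mice, 0 to 1 between long-chain and short-chain fructan in conventional mice, 0 to 1 for the short-chain change in germ-free against conventional mice, and 3 to 4 at the adjusted threshold on short-chain fructan. The set of 3 was again Mme, Sis and Treh. With replicate numbers as a block, no count changed, at 2, 4 and 2 members called between germ-free and conventional mice on long-chain fructan, short-chain fructan and water. Same-numbered mice did not deviate together (mean r -0.003 over 60 pairs, highest 0.12), and nothing pairs them. With 4 mice per group, their number limits what can be called. Over all genes, adipocyte markers in the model left 521 in place of 2832 genes at the adjusted threshold on short-chain fructan, germ-free against conventional, and 1583 in place of 2983 on long-chain fructan. With the arrays of the groups compared, 97 in place of 161 genes were called after long-chain fructan in germ-free mice. Leaving out dim genes, which lowers the number of genes tested, cut the calls to 1161, 1090 and 1076 between germ-free and conventional mice on long-chain fructan, short-chain fructan and water, and to 13 to 73 in the other comparisons. Without single mice, calls after short-chain fructan in germ-free mice reached 61 and 263 in place of 109 (replicate 3 of the short-chain and of the water mice). Between the fructans in conventional mice, they reached 82, 63, 92 and 64 in place of 40 (replicates 3 and 4 of the short-chain and 3 and 4 of the long-chain mice). After short-chain fructan in conventional mice they reached 123 and 118 in place of 77 without short-chain replicate 3 or water replicate 4, and after long-chain fructan 90 and 119 in place of 59 without long-chain replicate 1 or 3. In germ-free mice, calls after long-chain fructan reached 287 and 271 in place of 161 without long-chain replicate 1 or water replicate 3. Against short-chain fructan they reached 455 in place of 265 without long-chain replicate 1, and for the short-chain change 215 in place of 133 without germ-free water replicate 3.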
